A study of Mus musculus with 12 samples.

Results

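The subunits of the mitochondrial respiratory chain and ATP synthase were examined in BMEL cells, bipotential mouse embryonic liver cells kept as undifferentiated progenitors that are able to form both hepatocytes and bile duct cells. The set holds every gene whose single symbol in the array annotation is that of a nuclear subunit of complex I (Nduf genes of the a, b, c, s and v series), complex II (Sdha to Sdhd), complex III (Uqcr genes and Cyc1), complex IV (Cox4 to Cox8 genes) or complex V (Atp5 genes), whatever its values. It counts 79 of the 12393 genes on the array, with 32 in complex I, 4 in complex II, 9 in complex III, 17 in complex IV and 17 in complex V. Ndufa4, named as a complex I gene but a subunit of complex IV, was placed in complex IV. No filter on low values was applied, so all 79 entered every test.

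The cells were of lines 9A1 and 14B3, isolated independently from livers of embryos of 14 days post coitum of the strain CBA/J x C57Bl/6J, with no transgene or other agent named in the labels. Each line was grown in basal culture, as aggregates for 5 days, or in Matrigel, a gel of basement membrane proteins, for 10 days except for replicate 1 of line 14B3, whose label gives 5 days. There were 2 arrays for each line and culture, 12 in all, so a culture had 4 arrays. Culture and line can thus be compared, while each line is a single isolate and both share strain, age and tissue. Days of culture differed between aggregates and most Matrigel arrays, and the labels give none for basal culture. A difference between cultures thus cannot be told apart from one of time in culture. The series was made to find surface markers of liver progenitors, and the labels state no question about mitochondria.

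Complexes I to IV pass electrons from NADH and succinate to oxygen, and complexes I, III and IV pump protons across the inner mitochondrial membrane. Complex V, the ATP synthase, uses the returning protons to make ATP. Most subunits are encoded in the nucleus and imported, while a few core subunits are encoded by mitochondrial DNA. Mature hepatocytes are rich in mitochondria and draw on this ATP for gluconeogenesis, urea synthesis and secretion, and several subunits of complex IV exist as isoforms of liver type or of heart and muscle type.

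The arrays were alike in scale, with median intensities of 268 to 281, and replicate arrays correlated at r of 0.985 to 0.993 over genes. The 7 hepatocyte markers were measured as a check of the hepatic label. Their summed intensity was 4262 to 6801 on the basal arrays, 40830 to 63219 on the aggregate arrays and 34142 to 42340 on the Matrigel arrays, and each was higher in aggregates than in basal culture. In Matrigel all but Tat (-0.06) were higher. Among markers of other cells, 1 of 7 haematopoietic genes (Ptprc, 0.41 log2 units) was higher in aggregates. Of the endothelial and the stellate and fibroblast genes, 0 of 8 in each list were higher, where 22.9% of all genes rose. Of 5 bile duct genes, Epcam (5.00) and Cftr (2.54) were higher in aggregates and Krt7 (-2.29) and Sox9 (-0.47) lower. In Matrigel Epcam (4.74) and Cftr (2.21) were higher, and the other bile duct genes did not pass. In Matrigel the macrophage gene Cd68 (0.46), the endothelial gene Cdh5 (0.50) and the fibroblast collagens Col1a1 (0.69) and Col3a1 (1.03) were higher than in basal culture. The share of all genes that rose there was 14.1%. The rest of the 7 haematopoietic, 8 endothelial and 8 stellate and fibroblast genes did not pass in Matrigel, with differences of both signs in each list. The summed intensity of the 8 endothelial genes was 865 to 1130, 993 to 1131 and 781 to 1387 in basal, aggregate and Matrigel culture, that of the 8 stellate and fibroblast genes 971 to 1075, 1057 to 1273 and 934 to 1763, and that of the 7 haematopoietic genes 902 to 972, 971 to 1170 and 876 to 1065. The part of these other cells in the results on subunits was not tested, and in bulk RNA fewer cells of a type and less RNA per cell cannot be told apart. The 3′ to 5′ log2 ratio of the Actb control probe sets, which rises when RNA degrades, had medians of 0.30, 0.32 and 0.29 in basal, aggregate and Matrigel culture.

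Subunit genes were ranked by culture in the order basal, Matrigel, aggregate. With each gene's log2 value centred on its own mean over the arrays, the median of the 79 genes was -0.19, -0.24, -0.22 and -0.32 on the basal arrays, in the order 9A1 replicates 1 and 2, then 14B3 replicates 1 and 2. The same median was 0.10, 0.26, 0.19 and 0.21 on the aggregate arrays and -0.02, -0.01, 0.14 and 0.06 on the Matrigel arrays. Arrays of the same line and culture spread around their mean by an SD of 0.0607, so the basal arrays lay below all others by more than that spread, while the lowest aggregate array lay below the highest Matrigel array. From 8 to 11 of the 79 genes stood above their own mean on a basal array, 62 to 75 on an aggregate array and 31 to 65 on a Matrigel array. In 63 of the 79 genes the means ran aggregate, Matrigel, basal from high to low, an order that 30.6% of all genes had.

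**Figure D1:**
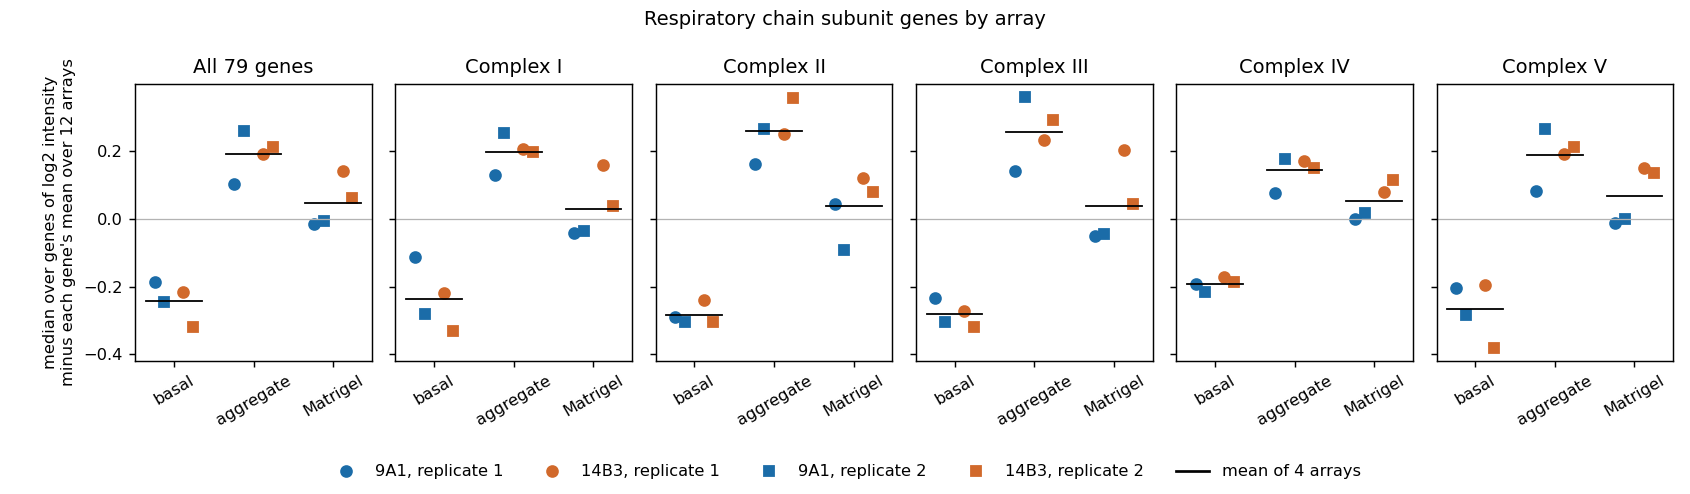
Median of gene-centred log2 intensity per array (y axis, log2 units) for all 79 subunit genes and for complexes I to V, by culture (x axis); circles are replicate 1, squares replicate 2, blue is line 9A1, orange is line 14B3, and the line is the mean of the 4 arrays of a culture. Over all 79 genes the basal arrays lie between -0.32 and -0.19 and the aggregate arrays between 0.10 and 0.26.

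The promoters of 6 genes described below are shown. Among them are those with the largest differences between cultures (Cox7a1 and Ndufv3), the gene called lower in aggregates (Atp5g2) and a gene with every motif marked here (Sdhd). Subunit genes are textbook targets of NRF1, of oestrogen-related receptors (ERR) and of ETS factors such as GABP. RefSeq (build GRCm38.p6) gave windows from 250 bases before to 50 after the gene start for 64 of the 79 genes. They were searched on both strands for the palindromic NRF1 consensus (exact but for a single free base), TCAAGGTCA (ERR) and CCGGAAG (ETS), and capitals mark the matches. Sdhd, a membrane anchor of complex II, held all of them, Atp5h an NRF1 and an ETS match, and Ndufa6 and Atp5g2 an NRF1 match. Cox7a1 and Ndufv3 held none.
Sdhd chr9:50603800-50604099 minus strand: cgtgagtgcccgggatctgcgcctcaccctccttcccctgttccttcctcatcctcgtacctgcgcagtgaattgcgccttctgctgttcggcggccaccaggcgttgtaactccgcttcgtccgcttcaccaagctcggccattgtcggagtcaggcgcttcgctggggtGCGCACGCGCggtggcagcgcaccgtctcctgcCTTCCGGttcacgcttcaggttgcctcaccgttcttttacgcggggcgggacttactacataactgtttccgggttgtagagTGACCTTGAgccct
Atp5h chr11:115419870-115420169 minus strand: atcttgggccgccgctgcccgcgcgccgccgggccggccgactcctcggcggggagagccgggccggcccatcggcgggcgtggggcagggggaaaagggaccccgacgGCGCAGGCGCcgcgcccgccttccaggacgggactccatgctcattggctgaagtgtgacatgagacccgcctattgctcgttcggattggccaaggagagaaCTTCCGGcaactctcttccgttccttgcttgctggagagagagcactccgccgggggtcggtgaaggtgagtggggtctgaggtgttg
Ndufa6 chr15:82354242-82354541 minus strand: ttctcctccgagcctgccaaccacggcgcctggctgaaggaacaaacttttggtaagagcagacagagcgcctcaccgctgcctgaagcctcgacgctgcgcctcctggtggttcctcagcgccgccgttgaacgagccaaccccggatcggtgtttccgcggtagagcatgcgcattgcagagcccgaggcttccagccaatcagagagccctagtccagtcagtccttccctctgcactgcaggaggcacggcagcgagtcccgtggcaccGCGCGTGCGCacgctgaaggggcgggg
Atp5g2 chr15:102670998-102671297 minus strand: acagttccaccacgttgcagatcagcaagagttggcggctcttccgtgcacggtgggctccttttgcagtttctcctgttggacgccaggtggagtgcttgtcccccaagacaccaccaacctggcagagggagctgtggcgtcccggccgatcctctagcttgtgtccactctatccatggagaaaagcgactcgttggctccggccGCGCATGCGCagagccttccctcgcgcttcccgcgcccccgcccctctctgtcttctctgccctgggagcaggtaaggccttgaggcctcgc
Cox7a1 chr7:30183921-30184220 plus strand: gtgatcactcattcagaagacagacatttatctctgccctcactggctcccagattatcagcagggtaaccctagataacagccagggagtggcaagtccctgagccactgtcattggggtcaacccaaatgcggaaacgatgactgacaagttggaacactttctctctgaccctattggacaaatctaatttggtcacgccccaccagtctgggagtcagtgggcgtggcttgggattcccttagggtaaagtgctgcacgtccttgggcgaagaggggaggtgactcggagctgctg
Ndufv3 chr17:31519865-31520164 plus strand: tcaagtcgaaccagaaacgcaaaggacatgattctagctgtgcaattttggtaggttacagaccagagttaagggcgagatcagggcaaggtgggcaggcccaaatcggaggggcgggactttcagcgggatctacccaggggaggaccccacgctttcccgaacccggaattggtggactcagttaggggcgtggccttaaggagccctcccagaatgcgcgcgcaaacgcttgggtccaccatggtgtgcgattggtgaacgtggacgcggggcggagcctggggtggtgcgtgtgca

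Of the 64 genes, 14 (21.9%) held the NRF1 consensus, against 9.4% of 9882 array genes with a window and 4.6% of 32851 RefSeq windows. The ERR letters stood in 2 windows (3.1%), those of Sdhd and Atp5g3, against 0.3% of array genes. The ETS letters stood in 17 (26.6%), against 16.4% of array genes. The common promoter box CCAAT stood in 26 (40.6%) against 42.3%, and the letters CGCGTG in 11 (17.2%) against 17.3%. At least 1 of the NRF1, ERR and ETS matches stood in 27 genes (42.2%), against 23.8% of array genes. Of these 27, 24 were higher in aggregates than in basal culture, with a median difference of 0.52 log2 units. Of the 37 without, 23 were higher, with a median of 0.33. In Matrigel 16 of the 27 and 13 of the 37 were higher, with medians of 0.32 and 0.26. Over all genes 22.9% rose in aggregates and 14.1% in Matrigel. How many other array genes with a match rose was not counted. These counts are a description with no test, and a match is not a bound site.

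In aggregates compared with basal culture, 57 of the 79 subunit genes rose and 1 fell (limma, adjusted p below 0.05 over all genes), where 46.3% of all genes passed, 22.9% rising and 23.4% falling. The median difference was 0.42 log2 units over the subunits and 0.10 over all genes. The rise covered every complex: 22 of 32 genes in complex I, 4 of 4 in complex II, 8 of 9 in complex III, 8 of 17 in complex IV and 15 of 17 in complex V. For 56 of the genes the 4 aggregate arrays lay wholly above the 4 basal arrays (24.6% of all genes). A positive difference in both lines, called or not, was seen in 69 subunit genes. Over all genes the median difference was 0.11 in 9A1 and 0.06 in 14B3. Differences were small for most subunit genes, with a Cox7a1 value of 2.78 standing apart and a Ndufv3 value of 1.41 next.

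In complex I, which takes electrons from NADH, 4 of 6 core subunits and 18 of 26 accessory subunits rose, with median differences of 0.36 and 0.40. Ndufv3, an accessory subunit beside the flavin-binding arm, had log2 intensities of 11.08, 11.20, 11.32 and 11.34 in basal culture (9A1 replicates 1 and 2, then 14B3 replicates 1 and 2, the order used throughout). It had 12.58, 12.86, 12.72 and 12.43 in aggregates and 11.93, 12.20, 11.88 and 12.24 in Matrigel, so that each culture occupied a range of its own. Its rise in aggregates was 1.41 ± 0.12 (SE, limma), or 2.66-fold, with an adjusted p of 1.46e-06. Ndufa6, an accessory subunit of the LYR motif family, stood at 10.61, 10.62, 10.78 and 10.85 in basal culture and at 11.64, 11.87, 11.76 and 11.50 in aggregates, a rise of 0.98 ± 0.11 (limma adjusted p = 1.36e-05). Every aggregate array thus lay above every basal array for both genes.

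Among the core subunits of complex I, Ndufs7, which carries the last iron-sulfur cluster before ubiquinone, rose by 0.69 (limma adjusted p = 0.000139), and Ndufs1, the large iron-sulfur subunit, by 0.44 (0.00331). Ndufv1, which binds the flavin where NADH is oxidised, rose by 0.29 (0.0446), a call lost without any 1 of 9 of the arrays. To account for the rest, Ndufb10, Ndufa3, Ndufc1, Ndufb9, Ndufa1, Ndufa5, Ndufb3, Ndufb11, Ndufs3, Ndufb2, Ndufs5, Ndufa13, Ndufa8, Ndufb5, Ndufa2, Ndufa12 and Ndufb7 also rose, by 0.96 (Ndufb10) down to 0.30 (Ndufb7). Ndufv2 (0.25), Ndufa7, Ndufa10, Ndufa9, Ndufs4, Ndufc2, Ndufb6, Ndufs8, Ndufb8 and Ndufb1 (-0.08) did not pass. Ndufv2 passed when replicate number was fitted as a block. A dimmer Ndufs4 probe set, with a mean of 6.66, differed from the one used (0.00) with a value of 0.67 (limma adjusted p = 0.00396 over probe sets).

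All 4 genes of complex II, the succinate dehydrogenase that also serves the citric acid cycle, rose in aggregates. The flavoprotein Sdha, which oxidises succinate, had log2 intensities of 11.72, 11.70, 11.97 and 11.79 in basal culture and 12.37, 12.45, 12.46 and 12.49 in aggregates. The groups did not overlap, and the rise was 0.64 (limma adjusted p = 0.000166), or 1.56-fold. Sdhd, whose promoter is shown above, had 11.70, 11.83, 11.71 and 11.82 in basal culture and 12.31, 12.45, 12.49 and 12.53 in aggregates. Its rise was 0.68 ± 0.10 (limma adjusted p = 0.000111), or 1.61-fold. The other membrane anchor, Sdhc, rose by 0.43 (limma adjusted p = 0.00251). The iron-sulfur subunit Sdhb rose by 0.34 (0.0314), a call lost without any 1 of 4 of the arrays.

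In complex III, which passes electrons from ubiquinol to cytochrome c, the 5 small subunits all rose, with a median of 0.75. Uqcrh, the hinge subunit near cytochrome c1, stood at 10.80, 10.86, 10.61 and 10.39 in basal culture and at 11.43, 11.61, 11.51 and 11.48 in aggregates, with no overlap. Its rise was 0.84 ± 0.12, or 1.79-fold (limma adjusted p = 7.53e-05). Uqcr11 and Uqcrq followed at 0.75 each, then Uqcr10 (0.56) and Uqcrb (0.46). Uqcrq was at 0.24 (limma adjusted p = 0.0558) when the probe sets of each gene were averaged. The Rieske iron-sulfur protein Uqcrfs1 rose by 0.54 (limma adjusted p = 0.000628) and the core protein Uqcrc2 by 0.50. Uqcrc1, the other core protein, rose by 0.38 (0.0285), a call lost without any 1 of 4 of the arrays. Cyc1, the cytochrome c1 haem protein, was the exception, at 0.15 (95% confidence interval -0.09 to 0.39, limma adjusted p = 0.297).

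In complex IV, cytochrome c oxidase, 7 of 9 widely expressed subunits rose, with a median of 0.47. Of the tissue isoforms 1 of 6 rose, with a median of 0.14, where 22.9% of all genes rose. That 1 was Cox7a1, the heart and muscle isoform of subunit 7A and the subunit gene with the largest difference. All tissue isoforms but Cox8c, and Cox7c of the widely expressed subunits, had means below the median level of all genes. Without detection calls, isoforms that did not rise may give background signal only, so the counts do not compare the classes at like levels. Cox7a1 had log2 intensities of 6.09, 6.23, 6.46 and 6.60 in basal culture, 8.93, 9.50, 9.52 and 8.55 in aggregates and 8.17, 8.27, 7.61 and 8.32 in Matrigel. The 3 cultures did not overlap. The rise in aggregates was 2.78 ± 0.21, or 6.87-fold (limma adjusted p = 5.61e-07). Its basal mean (6.34) was the lowest of the 79 genes and lay above only 12.4% of all genes, and with no detection calls in the files it was not known to be above background, so the fold depends on a level that may be background signal. In aggregates its mean lay above 65.1% of all genes. The gene has 1 probe set, so no second one could be set beside it.

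The liver type isoform of the same subunit, Cox7a2, was bright in every culture. It stood at 12.83, 12.83, 12.87 and 12.69 in basal culture, 13.26, 13.47, 13.33 and 13.24 in aggregates and 13.04, 13.10, 13.22 and 13.24 in Matrigel, and its rise in aggregates was 0.52, or 1.44-fold (limma adjusted p = 0.000471). Cox8a, the liver type isoform of subunit 8, rose by 0.73 (2.23e-05) and Cox6a1, that of subunit 6A, by 0.47 (0.000716). Cox6b1, the widely expressed isoform of subunit 6B, rose by 0.74, or 1.67-fold (4.04e-05), and its second probe set by 0.72. Cox6c rose by 0.63, Cox5b by 0.32 and Cox4i1, the widely expressed isoform of subunit 4, by 0.32 (0.0136), the last a call lost without any 1 of 3 of the arrays.

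The other tissue isoforms of complex IV did not pass the test in aggregates. Over the 12 arrays, Cox4i2, the lung isoform of subunit 4, lay between 7.57 and 8.11, and Cox6a2 and Cox8b, the heart and muscle isoforms of subunits 6A and 8, between 7.49 and 8.17 and between 7.27 and 7.96. The testis isoforms Cox6b2 and Cox8c lay between 6.48 and 7.19 and between 9.63 and 10.24. Their differences from basal culture were 0.14, 0.15, -0.00, 0.13 and 0.08 for Cox4i2, Cox6a2, Cox8b, Cox6b2 and Cox8c. Neither of the other heart and muscle isoforms had a difference near that of Cox7a1. Both had means below the median level of all genes, and without detection calls their signal may be background. The summed intensity of the 14 heart and skeletal muscle markers was 2891 to 3562 in basal culture, 1801 to 2141 in aggregates and 1608 to 2318 in Matrigel. In aggregates Tnni3 was higher by 0.34 and Tnnt2, cardiac troponin T, lower (-4.63), and the other 12 did not pass. Without Tnnt2, a choice made after its value was seen, the sum of the other 13 was 1624 to 1746, 1743 to 2068 and 1397 to 1897 in turn. Of these 13, 12 had a positive difference in aggregates, the direction of Cox7a1, with a median of 0.14 and none above 0.36. In Matrigel 6 had one, with a median of -0.04. Both medians lay near those of all genes, 0.10 in aggregates and -0.04 in Matrigel. The part of these markers in the Cox7a1 result was not tested. The muscle regulators Myod1 and Myog lay between 7.24 and 7.91 and between 7.01 and 7.80 over the arrays, and Ckm, muscle creatine kinase, between 7.39 and 8.06. None of the 4 brown fat and 6 testis markers was higher in aggregates.

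Of the remaining complex IV genes, Cox5a (0.27, limma adjusted p = 0.088) did not pass but had an adjusted p of 0.0283 with replicate number as a block. Cox7a2l, a factor of respiratory supercomplexes, and Cox7c, Ndufa4 and the 5 isoforms above also did not pass, with Cox7a2l at 0.21, Cox7c at 0.15 and Ndufa4 at 0.08.

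**Figure D2:**
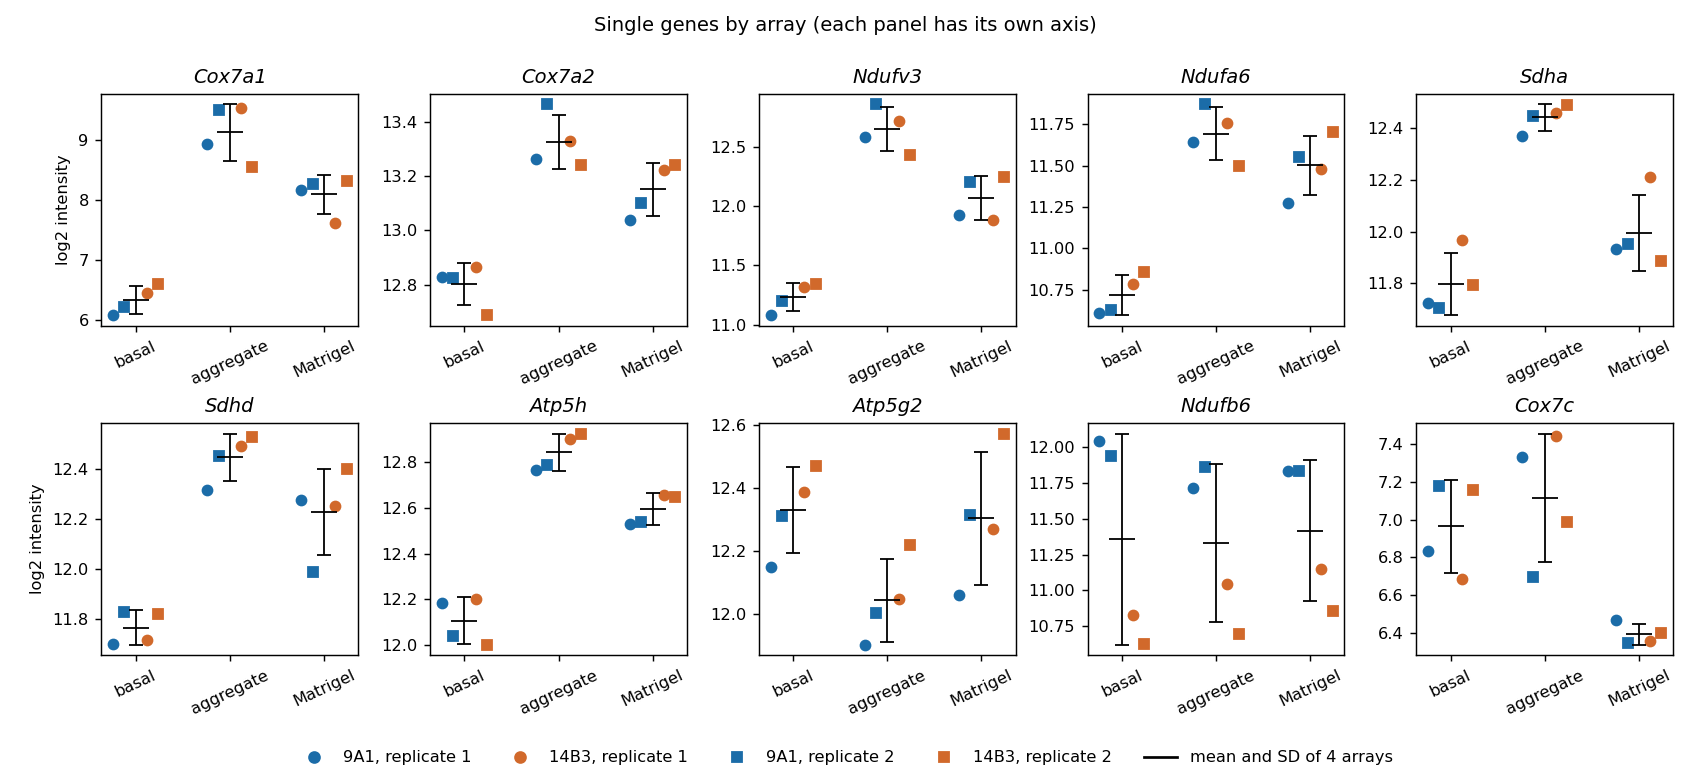
Log2 intensity per array (y axis) of 10 subunit genes in basal, aggregate and Matrigel culture (x axis), with the mean and SD of the 4 arrays; each panel has an axis of its own, and levels are not comparable between panels. Cox7a1 moves from 6.34 ± 0.23 (SD, n = 4) in basal culture to 9.13 ± 0.47 in aggregates, and Ndufb6 separates by line in every culture.

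In complex V, 15 of 17 genes rose in aggregates. The peripheral stalk, which holds the catalytic head still, rose in 4 of 4 genes with a median of 0.49. Atp5h, its subunit d, had log2 intensities of 12.19, 12.04, 12.20 and 12.00 in basal culture, 12.76, 12.78, 12.90 and 12.92 in aggregates and 12.53, 12.54, 12.66 and 12.65 in Matrigel, with no overlap between any of the cultures. Its rise in aggregates was 0.73 ± 0.09, or 1.66-fold (limma adjusted p = 2.56e-05). Atp5o (0.57), Atp5j (0.41) and Atp5pb (0.39) are its other members. The 5 small membrane subunits all rose, from Atp5l (0.68) through Atp5k (0.52), Atp5md (0.46) and Atp5mpl (0.43) to Atp5j2 (0.37).

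In the F1 part, made up of the catalytic head and the central stalk, 4 of 5 genes rose. In the central stalk the epsilon subunit Atp5e rose by 0.59 (limma adjusted p = 0.000181), the gamma subunit Atp5c1 by 0.52 and the delta subunit Atp5d by 0.33. In the head itself the catalytic beta subunit Atp5b rose by 0.26 (0.045), a call lost without any 1 of 8 of the arrays. The alpha subunit Atp5a1 did not pass (0.20, 0.107).

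The 3 genes for the proton-carrying c ring, whose mature proteins are the same, did not move alike. Atp5g1 rose by 0.60 (limma adjusted p = 0.00116) and Atp5g3 by 0.42 (0.0014), while Atp5g2 was the 1 subunit gene that fell. Atp5g2 had 12.15, 12.31, 12.39 and 12.47 in basal culture, 11.90, 12.00, 12.05 and 12.22 in aggregates and 12.06, 12.31, 12.27 and 12.57 in Matrigel. The basal and aggregate arrays overlapped, and the fall was 1.22-fold, a difference of -0.29 ± 0.11 (limma adjusted p = 0.0465). The call was lost without any 1 of 7 of the arrays (adjusted p from 0.0621 to 0.149) and with the mean of its probe sets (-0.18, 0.21), and its second probe set, with a mean of 6.54, gave -0.08.

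**Figure D3:**
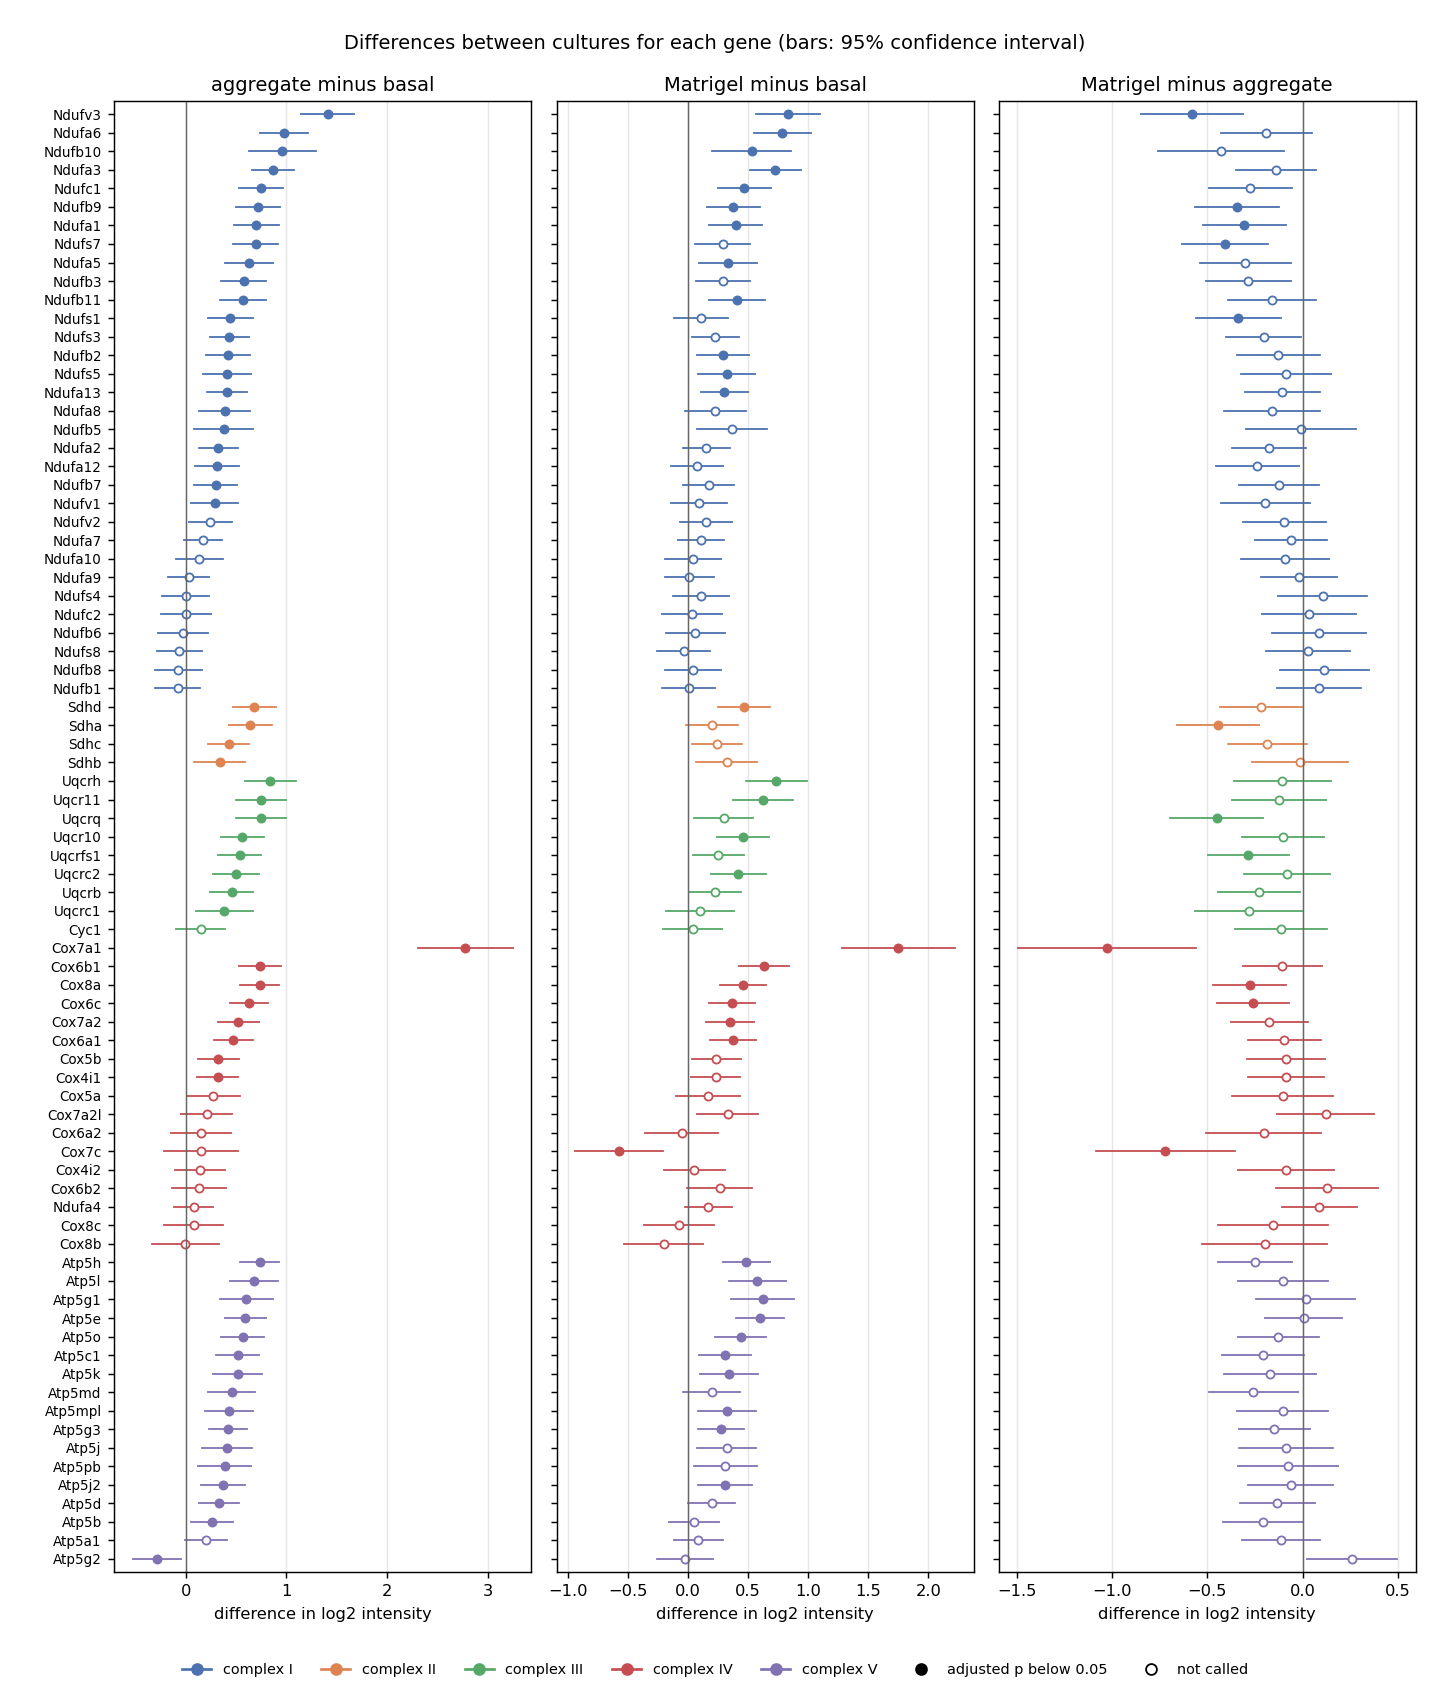
Log2 difference (x axis) with its 95% confidence interval for each of the 79 subunit genes (y axis), grouped by complex, for aggregates less basal culture, Matrigel less basal culture and Matrigel less aggregates, each panel with its own x axis; filled points have a limma adjusted p below 0.05. In the first panel 57 filled points lie above 0 and 1 below, in the second 33 and 1, and in the third 0 and 12.

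In Matrigel compared with basal culture, 33 of the 79 subunit genes rose and 1 fell, where 28.4% of all genes passed, 14.1% rising and 14.3% falling. The median difference was 0.29 log2 units, against -0.04 over all genes, and 73 genes had a positive value. By complex, 12 of 32, 1 of 4, 4 of 9, 6 of 17 and 10 of 17 genes rose in complexes I to V. For 39 genes every Matrigel array lay above every basal array (12.6% of all genes), and for 1, Cox7c, every one lay below (13.6%). These counts rest on few arrays: 21 genes rose without basal 14B3 replicate 2, and with replicate number fitted as a block in each line 41 did. Both comparisons with basal culture share the basal arrays, so their values are given side by side and are not independent.

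In complex I, 12 of 26 accessory subunits and 0 of 6 core subunits rose in Matrigel, with medians of 0.29 and 0.13. Ndufv3 rose by 0.83 (limma adjusted p = 0.000326), against 1.41 in aggregates. Ndufa6 rose by 0.79 (0.000227), from the basal values above to 11.28, 11.55, 11.48 and 11.70, all above the basal range. Ndufs1 (0.11) and Ndufv1 (0.09) did not pass, and Ndufs7 (0.29, 0.0595) passed with the replicate block (0.0351). The complex I count of 12 was 5 without basal 9A1 replicate 2, 6 without basal 14B3 replicate 2 or Matrigel 14B3 replicate 1, and 7 without Matrigel 9A1 replicate 2.

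In complex II only Sdhd rose, by 0.46 (limma adjusted p = 0.00403), with Matrigel values of 12.28, 11.99, 12.25 and 12.40 that all lay above the basal ones. Sdha, at 11.93, 11.95, 12.21 and 11.89, overlapped its basal values (0.20, 0.177). Sdhb (0.32, 0.0584, and 0.0466 with the replicate block) and Sdhc (0.24, 0.0792) did not pass. In complex III, 3 of 5 small subunits and the core protein Uqcrc2 (0.42, 0.00962) rose. The largest values were those of Uqcrh (0.74, 0.000574) and Uqcr11 (0.62, 0.00141). Uqcrq was at 0.30 (0.0726, and 0.0478 with the replicate block), Uqcrfs1 at 0.25 (0.0777), Uqcrc1 at 0.10 and Cyc1 at 0.04.

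In complex IV, Cox7a1 again had the largest rise, 1.75 ± 0.21 or 3.36-fold (limma adjusted p = 8.46e-05). Among the widely expressed subunits Cox6b1 rose by 0.63 (0.000383), Cox8a by 0.46 (0.00199), Cox6a1 by 0.38 (0.0066), Cox6c by 0.36 (0.00762) and Cox7a2 by 0.35 (0.0131). Cox4i1 was at 0.23 (0.0873), Cox5a at 0.17 and Ndufa4 at 0.17, none of them past the test. Cox7a2l, at 0.33 (0.0524), passed with the replicate block (0.0153).

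Cox7c, a small subunit of complex IV, was the 1 gene that fell in Matrigel. It stood at 6.84, 7.18, 6.68 and 7.16 in basal culture, 7.33, 6.69, 7.44 and 6.99 in aggregates and 6.47, 6.35, 6.36 and 6.40 in Matrigel, below every array of the other cultures. The difference from basal culture was -0.57 ± 0.17 (limma adjusted p = 0.0226). The probe set used is 1 of the 6 subunit probe sets below the median level of all genes, and its mean of 6.82 was the lowest of the members. With no detection calls in the files it was not known to be above background, so the differences of Cox7c may rest on background signal. Its second probe set, dimmer still with a mean of 5.27, gave -0.38 (limma adjusted p = 0.031 over probe sets). The call was lost without any 1 of 5 of the arrays (0.0512 to 0.0961).

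In complex V, 2 of 3 c ring genes rose in Matrigel, Atp5g1 by 0.62 (limma adjusted p = 0.00201) and Atp5g3 by 0.28 (0.0317, lost without any 1 of 8 of the arrays), and Atp5g2 was at -0.03. Atp5e rose by 0.60 (0.000444), Atp5l by 0.58 (0.00175) and Atp5h by 0.49 (0.00153), in the central stalk, the membrane part and the peripheral stalk in turn. Atp5b was at 0.05 and Atp5a1 at 0.09, neither past the test. The complex V count of 10 was 5 with arrays centred on their median and 5 without any 1 of Matrigel 9A1 replicate 2, basal 14B3 replicate 2, basal 9A1 replicate 1 and basal 9A1 replicate 2. It was 6 without Matrigel 14B3 replicate 2 or basal 14B3 replicate 1.

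Matrigel and aggregate cultures were then compared directly. Their labelled days of culture also differed, and the part of time cannot be told apart from that of culture. Relative to aggregates, 12 subunit genes were lower in Matrigel and 0 were higher (limma; at an unadjusted p under 0.05, 23 were lower and 1 higher), where 26.7% of all genes passed, 12.7% lower and 13.9% higher. The share of subunit genes that were lower was thus near that of all genes, while the share higher was below it. The median difference was -0.13, close to that of all genes (-0.10). With arrays centred on their median 17 genes were lower. With replicate number fitted as a block in each line 19 were lower and 1, Atp5g2, was higher (limma adjusted p = 0.0305). The count fell to 4 without aggregate 9A1 replicate 2, to 6 without Matrigel 9A1 replicate 1, and to 7 without any 1 of Matrigel 14B3 replicate 2, aggregate 14B3 replicate 1 and aggregate 14B3 replicate 2.

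The genes lower in Matrigel were the complex I genes Ndufv3, Ndufs7, Ndufs1, Ndufb9 and Ndufa1, Sdha of complex II, Uqcrq and Uqcrfs1 of complex III, and Cox7a1, Cox7c, Cox8a and Cox6c of complex IV. Cox7a1 was lower by a difference of -1.03 ± 0.21 (limma adjusted p = 0.00394), Cox7c by -0.72 (0.00738) and Ndufv3 by -0.58 (0.00416). For Sdha (-0.45, 0.00571) all 4 Matrigel arrays lay below the aggregate arrays. Ndufs7 differed by -0.41 (0.0127), Ndufs1 by -0.34 (0.0299), Uqcrq by -0.45 (0.0111) and Uqcrfs1 by -0.29 (0.0497). Several of these calls were fragile: of 22 alternatives, the call was kept in 7 for Uqcrfs1 and Cox6c, 9 for Cox8a and 13 for Ndufs1. None of the 17 genes of complex V passed. Atp5h, at -0.25 (0.0587), passed with the replicate block (0.0395).

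For 11 of the 79 genes the arrays of the 3 cultures did not overlap at either step, with aggregates highest and basal culture lowest, where 5.11% of all genes did so. They were Atp5d, Atp5h, Cox6c, Cox7a1, Cox8a, Ndufa1, Ndufb9, Ndufc1, Ndufv3, Sdhc and Uqcrq. They come from all 5 complexes and include accessory subunits, a membrane anchor (Sdhc) and a subunit of the central stalk of complex V (Atp5d).

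The lines differed in 1 subunit gene. Ndufb6, an accessory subunit of the membrane arm of complex I, was lower in 14B3 than in 9A1 (0 of the 79 genes were higher; 6.01% of all genes passed, 3.45% lower in 14B3 and 2.57% higher). In 9A1 it had log2 intensities of 12.04 and 11.93 in basal culture, 11.71 and 11.86 in aggregates and 11.83 and 11.83 in Matrigel. In 14B3 it had 10.83 and 10.62, 11.04 and 10.70, and 11.15 and 10.86. The lines did not overlap in any culture, and the level in 14B3 was 2.00-fold lower (SE 0.09 log2 units, limma adjusted p = 4.66e-05). Its second probe set gave -1.25 ± 0.15 (limma adjusted p = 0.000528 over probe sets). Within cultures the difference was -1.26 in basal culture, -0.92 in aggregates and -0.83 in Matrigel (limma adjusted p = 0.0016, 0.0121 and 0.0123), where 0.92%, 0.92% and 2.41% of all genes were lower in 14B3. Over the 79 genes the line difference had a median of 0.03, against 0.04 over all genes, and 11 genes (13.9%) had an unadjusted p under 0.05, against 16.4% of all genes.

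The response to culture was also set between lines. For aggregates, 37 genes rose in 9A1 (background 17.4%) and 43 in 14B3 (15.7%), with medians of 0.38 and 0.44. For Matrigel, 7 rose in 9A1 (9.71%) and 27 in 14B3 (8.91%), with medians of 0.18 and 0.35. The test of the difference itself found 0 genes for either culture (limma interaction, adjusted p below 0.05, against 0.468% and 0.686% of all genes), and 0 with the replicate block. At an unadjusted p under 0.05, 1 gene differed for aggregates (1.27%, against 6.63% of all genes) and 4 for Matrigel (5.06%, against 6.77%). In Matrigel the response was larger in 14B3 for 70 of the 79 genes, by a median of 0.19, against -0.01 over all genes. The culture time also differed in 14B3, where 1 of the Matrigel arrays is labelled as 5 days, and its part was not tested.

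Atp5l, a small membrane subunit of ATP synthase, had the smallest p for both interactions. It stood at 11.13 and 11.18 in basal 9A1 and at 10.71 and 10.62 in basal 14B3, so that the basal arrays of 14B3 were the lowest. In aggregates it had 11.33, 11.75, 11.64 and 11.64, and in Matrigel 11.39, 11.45, 11.66 and 11.44, where the lines overlapped. The response to Matrigel was 0.27 in 9A1 and 0.89 in 14B3, a difference of 0.62 ± 0.22 (limma adjusted p = 0.419).

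Other genes of mitochondrial energy metabolism were counted in lists for assembly, fuel supply, carriers, regulation, translation and import. Beside each count stand the shares over all genes given above: 22.9% rising and 23.4% falling in aggregates, and 14.1% and 14.3% in Matrigel. Of 35 assembly factors, 13 rose (37.1%) and 10 fell (28.6%) in aggregates, with a median of 0.08, the falling share being near that of all genes. Cox16 (1.35) and Cox19 (1.24), both factors of complex IV assembly, rose most, and Acad9 (-1.02), a complex I assembly factor, and Lrpprc (-0.89), which stabilises mitochondrial mRNAs, fell most. The count of 10 was 6 without basal 9A1 replicate 1. In Matrigel 5 rose (14.3%) and 7 fell (20.0%), near the shares of all genes, with Cox19 at 0.96 and Lrpprc at -0.63. The count of 7 was 2 without basal 9A1 replicate 1, 3 without basal 14B3 replicate 1, and 4 without Matrigel 14B3 replicate 2 or Matrigel 9A1 replicate 2. The 1 mitochondrially encoded subunit on the array, ND5 of complex I, rose in aggregates by 0.45 (limma adjusted p = 0.0181) and was at 0.05 in Matrigel. The call was lost without any 1 of aggregate 14B3 replicate 2, aggregate 9A1 replicate 2, basal 14B3 replicate 1 and basal 9A1 replicate 1.

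Of 18 genes of electron carriers and coenzyme Q, 11 rose (61.1%) and 3 fell (16.7%) in aggregates, with a median of 0.47, against 22.9% and 23.4% of all genes. In Matrigel 5 rose (27.8%) and 2 fell (11.1%), against 14.1% and 14.3%, and the count of 2 was 1 without basal 9A1 replicate 1. Sqor, which oxidises sulfide, rose by 1.89 (limma adjusted p = 4.46e-07) and Etfdh, which passes electrons from fatty acid oxidation, by 1.38 (3.53e-07), with 1.10 and 0.79 in Matrigel. Coq3, of coenzyme Q synthesis (-0.62), and Dhodh, of pyrimidine synthesis (-0.55), fell. Of 21 genes of the citric acid cycle and pyruvate dehydrogenase, 10 rose (47.6%) and 2 fell (9.52%) in aggregates, and 5 rose (23.8%) and 0 fell in Matrigel (1 without Matrigel 14B3 replicate 1). Pcx, pyruvate carboxylase of gluconeogenesis, rose by 3.01 (5.59e-09) and 2.27 in turn, and Pdk2, which inhibits pyruvate dehydrogenase, by 2.03 and 1.01, while Idh2 (-1.64) and Idh3a (-0.78) fell in aggregates. Of 16 carriers and inhibitors, 6 rose (37.5%) and 2 fell (12.5%) in aggregates. Higd1a, a small factor of complex IV, rose by 1.84 and Slc25a10, the dicarboxylate carrier, by 1.33, and Slc25a4, an ADP/ATP carrier, fell (-1.44).

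Among 24 regulators, 7 rose (29.2%) and 10 fell (41.7%) in aggregates, against 22.9% and 23.4% of all genes, and 4 rose (16.7%) and 6 fell (25%) in Matrigel, against 14.1% and 14.3%. The rising shares were near those of all genes. The count of 6 was 2 without basal 9A1 replicate 1 or basal 14B3 replicate 1, and 3 without Matrigel 14B3 replicate 2 or basal 14B3 replicate 2. Ppargc1b, a coactivator of mitochondrial genes, stood at 8.39, 8.63, 8.57 and 8.21 in basal culture, 9.73, 9.92, 9.98 and 9.71 in aggregates and 9.10, 9.05, 9.64 and 9.54 in Matrigel. It rose by 1.38 ± 0.12 in aggregates (limma adjusted p = 1.1e-06) and by 0.88 in Matrigel, without overlap with the basal arrays. Esrra, the oestrogen-related receptor that binds the ERR letters, stood at 8.58, 8.40, 8.05 and 8.43 in basal culture and 9.38, 9.57, 9.41 and 9.51 in aggregates. It rose by 1.10 (6.13e-06) and, in Matrigel, by 0.73 (0.000462). Sirt3, the mitochondrial deacetylase, rose by 1.17 and 0.53, and Ppargc1a by 0.43 in aggregates (0.00342), with 0.09 in Matrigel.

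Other regulators fell. Tfam, which packages and transcribes mitochondrial DNA, stood at 9.92, 9.61, 9.73 and 9.75 in basal culture and 9.06, 8.99, 9.09 and 8.80 in aggregates. Its difference was -0.77 (limma adjusted p = 0.000124) in aggregates and -0.37 (0.0298) in Matrigel, and the basal and aggregate arrays did not overlap. Nrf1, whose protein binds the NRF1 consensus, differed by -0.34 (0.0211) and Gabpa by -0.36 (0.0351) in aggregates. In Matrigel they were at -0.27 (0.0812) and -0.22 and did not pass. The growth regulators Myc (-2.26, 1.18e-06) and Pprc1 (-1.76, 8.03e-07), a coactivator related to Ppargc1a, fell most, with -0.94 and -0.73 in Matrigel.

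Mitochondrial ribosomal proteins and import genes fell more often than they rose. The ribosomal list was one of symbols, Mrpl and Mrps. Of its 74 genes, 4 rose (5.41%) and 42 fell (56.8%) in aggregates, with a median of -0.32, against 22.9% and 23.4% of all genes. In Matrigel 0 rose and 23 fell (31.1%), with a median of -0.23, against 14.1% and 14.3%. Mrps28 (-1.14, limma adjusted p = 2.81e-05) and Mrpl19 (-1.04) fell most in aggregates. Mrps36 (0.63), counted here by its symbol alone, and Mrps31 (0.49) rose. Of 21 import genes, 0 rose and 11 fell (52.4%) in aggregates, with a median of -0.43, and 0 rose and 7 fell (33.3%) in Matrigel. Timm8a1, an intermembrane space chaperone, differed by -1.14 (0.000344) and the outer membrane receptor Tomm20 by -1.04 (5.17e-05).

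Several of these counts moved when 1 array was left out. The ribosomal count of 42 in aggregates was 25 without basal 9A1 replicate 1. The ribosomal count of 23 in Matrigel was 6 without basal 9A1 replicate 1, 8 without basal 14B3 replicate 1, 10 without Matrigel 14B3 replicate 2 and 11 without Matrigel 9A1 replicate 2. The import count of 7 in Matrigel was 2 without basal 9A1 replicate 1, 3 without any 1 of basal 14B3 replicate 1, Matrigel 14B3 replicate 2 and Matrigel 9A1 replicate 2, and 4 without Matrigel 9A1 replicate 1. Of the import genes 1 rose in Matrigel without any 1 of Matrigel 9A1 replicate 2, aggregate 14B3 replicate 1 and aggregate 14B3 replicate 2. Quantile normalization and centring left the aggregate counts that fell at 42 for the ribosomal proteins and 11 for import.

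**Figure D4:**
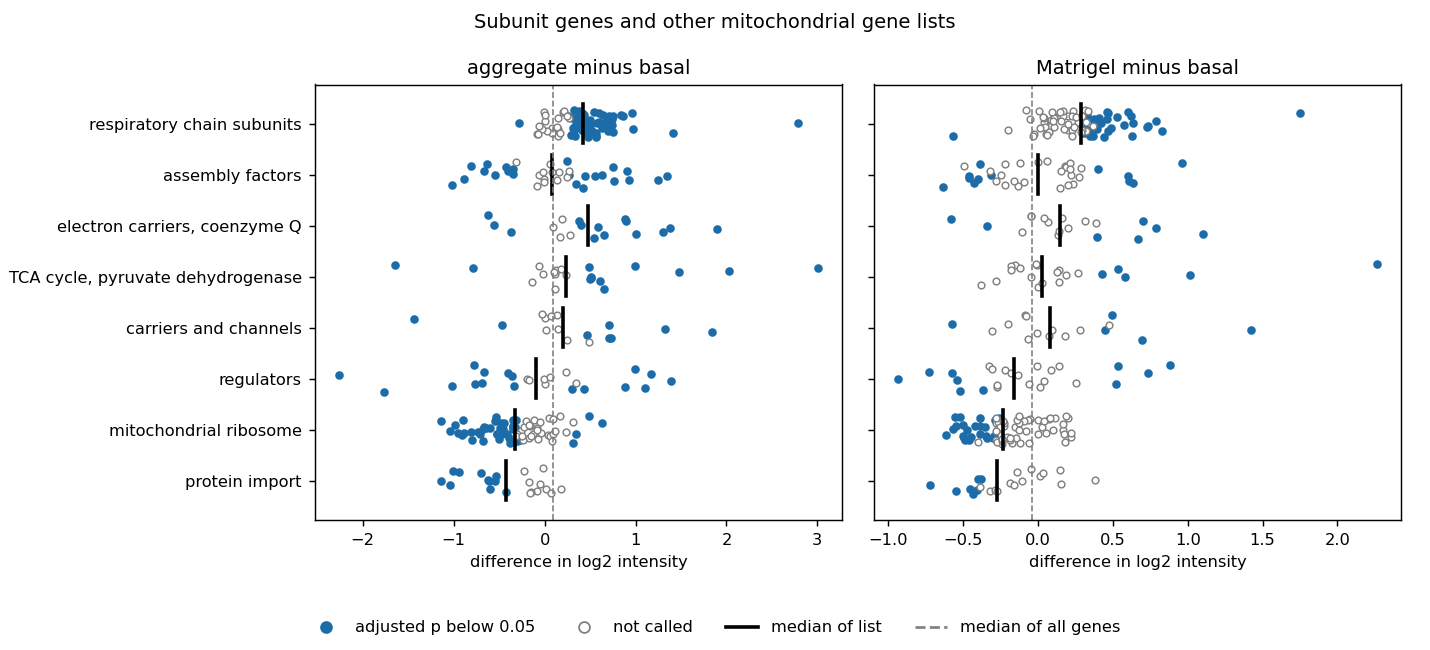
Log2 difference (x axis) of every gene in the 79 subunits and in 7 lists of related mitochondrial genes (y axis) for aggregate minus basal and Matrigel minus basal; the black bar is a list's median, the dashed line the median of all genes, and vertical scatter has no meaning. In aggregates the subunits have a median of 0.42, mitochondrial ribosomal proteins -0.32 and import genes -0.43.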

How the data were processed

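Total RNA was labelled and hybridised to 12 Affymetrix mouse 430A arrays. The deposited values are signal intensity per probe set, which the authors made with R 2.3.1 and RMA, per the submitters' processing notes. These intensities lie between 14.4 and 27318, a linear scale, so log2 was taken before any test. The design calls replicates biological and gives no more, so the spread behind each p-value is that of these samples alone and may be technical. The files hold no detection calls, and the number of arrays limits the precision. Levels of different probe sets were ranked only to describe bright and dim ones, and not to compare amounts of transcript.

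Of 22690 probe sets, 20380 carried 1 gene symbol, 691 several, 1555 none, and 64 were controls. Gene names come from GEO's annotation of the array, possibly outdated, and current symbols gave the same 79 members. Each gene was represented by the probe set with the highest mean over the 12 arrays; 43 members had more than 1, and 7 probe sets with several symbols were not used. Of the 79 used, 10 end in _s_at and 7 in _x_at, which can share probes with other transcripts.

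The model, fitted with limma 3.58.1 (R 4.3.3), had 1 mean per group for 6 groups (6 residual degrees of freedom, median residual SD 0.170), and two-sided p-values received the Benjamini-Hochberg adjustment over 12393 genes, with 0.05 as threshold. Culture differences were averaged over the lines. Deviations of arrays with the same replicate number correlated in all 15 pairs of groups (r from 0.10 to 0.64), so replicate number was also fitted as a block, within each line or shared by both. The fits were tested on simulated data.

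The members and lists were chosen with earlier results of these data known. Genes named with values were, per complex and comparison, up to 2 called in each direction, a set of catalytic, isoform and c ring genes and of regulators given by name, and up to 2 called per list and direction; other members are named to account for all 79, and the interaction gene Atp5l and the marker genes for their values. Alternatives were the blocks, quantile normalization, centred arrays, the mean of probe sets, only genes above the median level, array weights, each line alone and each array left out. Promoters are RefSeq's on GRCm38.p6. Protein sequences of the isoforms were not analysed here.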

Additional observations from a re-analysis of the deposited data

How the results depend on the processing

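The culture comparisons kept their direction over the alternatives run, and their counts moved. Of 55 calls on named subunits, 23 passed in every setting that could be run for them (19 in 22, the 3 of Cox7a1 in 21 and that of Ndufb6 in 20), 32 were lost in at least 1, and 0 reversed. With a replicate block within lines the genes lower in Matrigel than in aggregates numbered 19 with 1 higher, and with a block shared by the lines 20 with 1 higher; the shared block also gave 1 higher and 3 lower genes in 14B3. The block lost no call. It added Cox5a and Ndufv2 in aggregates (and Atp5a1 when shared), and in Matrigel Atp5j, Atp5pb, Cox7a2l, Ndufb3, Ndufb5, Ndufs7, Sdhb and Uqcrq within lines. Quantile normalization gave 45 genes higher in aggregates than in basal culture, with a median of 0.31, and 35 higher in Matrigel. It gave 10 genes lower in Matrigel than in aggregates, 8 of them among the 12 above, and 1 higher. It also gave 1 gene higher in 14B3. With arrays centred on their median 55 genes rose in aggregates and 24 in Matrigel. With the mean of probe sets 0 genes fell in aggregates and 2 were lower in 14B3. Among genes above the median level 0 fell in Matrigel, and with array weights 7 were lower in Matrigel than in aggregates. In 9A1 alone 33 rose and 0 fell in aggregates, 5 rose and 0 fell in Matrigel (median 0.18), and 3 were lower in Matrigel than in aggregates (median -0.21). In 14B3 alone the counts were 37 and 0, 19 and 0, and 2; fewer arrays enter these fits. Leaving out each of the 12 arrays in turn gave 45 to 56 genes higher and 0 to 1 lower in aggregates (median 0.39 to 0.45). In Matrigel it gave 21 to 33 higher and 0 to 1 lower (median 0.23 to 0.30), and against aggregates 4 to 10 lower and 0 higher (median -0.18 to -0.10). It gave 0 to 1 gene higher and 1 lower in 14B3, and median interactions of -0.045 to 0.11 for aggregates and 0.15 to 0.22 for Matrigel. For calls that changed, the cause was not tested.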

Other observations

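Set directly against aggregates, where 13.9% (higher) and 12.7% (lower) of all genes passed, the neighbouring lists had these counts in Matrigel. Of 74 genes with Mrpl or Mrps symbols 10 were higher (13.5%) and 2 lower (2.70%), with a median of 0.09, a share higher close to that of all genes. The count of 10 was 16 without Matrigel 14B3 replicate 2 and 5 without aggregate 9A1 replicate 2, and the count of 2 was 1 without any 1 of Matrigel 14B3 replicate 2, Matrigel 9A1 replicate 1, aggregate 14B3 replicate 2 and aggregate 9A1 replicate 2. Of 21 import genes 5 were higher (23.8%) and 0 lower, with a median of 0.19. The count of 5 was 8 without Matrigel 14B3 replicate 2 and 3 without Matrigel 14B3 replicate 1 or Matrigel 9A1 replicate 1. Of 18 genes of electron carriers and coenzyme Q 0 were higher and 6 lower (33.3%), with 1 higher without Matrigel 14B3 replicate 2. Of 21 citric acid cycle genes 1 was higher and 6 lower (28.6%), with 2 higher without the same array. Across the arrays left out in turn, 4 to 9 of these 21 were lower.

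The replicate arrays of 9A1 aggregates differed in the subunits: 66 of the 79 genes were higher on replicate 2, with a median difference of 0.15.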
